A study of Mus musculus with 8 samples.

Results

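The tetraspanin genes Cd9, Cd63, Cd81, Cd82, Cd53, Cd37 and Cd151 were followed in the forebrain of aged TgCRND8 mice, a transgenic line that overexpresses the amyloid precursor protein (APP), and of their non-transgenic littermates. The members were chosen by symbol, as tetraspanins known from microglia and other glia, and all 7 were found among the 56748 genes of the count table. All 7 passed the filter on low counts, which left 21588 genes to be tested. The transgenic group (Tg) and the non-transgenic group (NTg) had 4 libraries each. Tg carries the APP transgene, NTg carries none, and the labels name no other allele and no drug. All brains were harvested at 18 months, and one hemisphere was frozen and pulverised. Polyadenylated RNA of the forebrain was then sequenced, so each value is an average over all cells of that tissue. TgCRND8 is known as a line with a mutant human APP under a prion protein promoter, which the labels do not state. Nor do the labels say outright that each library is 1 animal, so p-values may measure a partly technical spread.

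Tetraspanins are small proteins that cross the membrane 4 times and gather integrins, immunoglobulin-family proteins and proteases into patches called tetraspanin-enriched microdomains. Some, with Cd63 as the best known, also sit in late endosomes and lysosomes and leave the cell on extracellular vesicles, where Cd9, Cd63 and Cd81 serve as common markers. In the brain Cd9 is made by myelinating cells, astrocytes and activated microglia, and Cd9 and Cd63 belong to the programme of microglia around amyloid plaques. Cd81 is broadly expressed and abundant in astrocytes, Cd53 and Cd37 are largely restricted to blood-derived and microglial cells, and Cd151 is a partner of laminin-binding integrins in epithelium and vessels. Cd82 is expressed in many tissues, oligodendrocytes included.

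Library totals were 57129090 to 65242741 counts. App, to which reads of a human transgene can align in part, was 1488 ± 98.4 (NTg) and 2851 ± 213 CPM (Tg) (SD, n = 4, edgeR adjusted p = 0.00146), with all Tg libraries above all NTg libraries. CPM is the count scaled to a common library size of 1e6, after scaling between libraries with TMM factors. Neuronal markers for the labelled tissue were present in every library, led by Snap25 and Syt1. Tg replicate 1 stood apart from the other Tg libraries in glial genes: its reactive astrocyte markers (8 genes) summed to 775 CPM whereas the other Tg libraries had 1855 to 2465 CPM and NTg had 498.5 to 595.6 CPM. Its red blood cell genes (5 genes) summed to 3003 CPM, within the NTg range of 1282 to 3271 CPM, whereas the other Tg libraries had 447.9 to 732 CPM. The calls of the members are given with and without it, and for the marker comparisons the values of the other Tg libraries are given beside it.

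Cd53, Cd37, Cd9 and Cd63 stood 1.40- to 1.75-fold higher in Tg on average, whereas Cd81, Cd151 and Cd82 differed by 1.08-fold or less. None of the 7 passed the quasi-likelihood test of edgeR at a false discovery rate (FDR) of 0.05 over all tested genes, where 3 genes (0.0139%) passed. At an unadjusted p under 0.05 edgeR gave 5 members higher in Tg and 0 lower, where 4.68% of all tested genes were higher. DESeq2 called Cd53, Cd37, Cd9 and Cd63 higher on the same counts, where it called 1.33% of all tested genes higher and 0.301% lower, and limma-voom called 0 of the 7 (0.0139% of genes). Without Tg replicate 1 edgeR called the same 4 genes, where it called 1.26% of genes higher. That contrast also differed in blood content, with 4 of the 5 red blood cell genes called lower (0.174% of all genes), whose part in the member calls was not tested. With no filter on low counts it called Cd53 alone (0.295% of genes higher). It called 0 of the 7 with a stricter filter (0.0182% of genes), robust dispersion (0.0185%) or a replicate block (0.00463%). It also called 0 without NTg replicate 1 (0.073%), 2 (0.0137%), 3 (0.0136%) or 4 (0.0182%), and without Tg replicate 2 (0.0412%), 3 (0.0137%) or 4 (0.0137%). All 7 fold changes were above 1, as were those of 49.2% of all genes, and their median log2 fold change was 0.48 against -0.0024 over all genes.

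**Figure D1:**
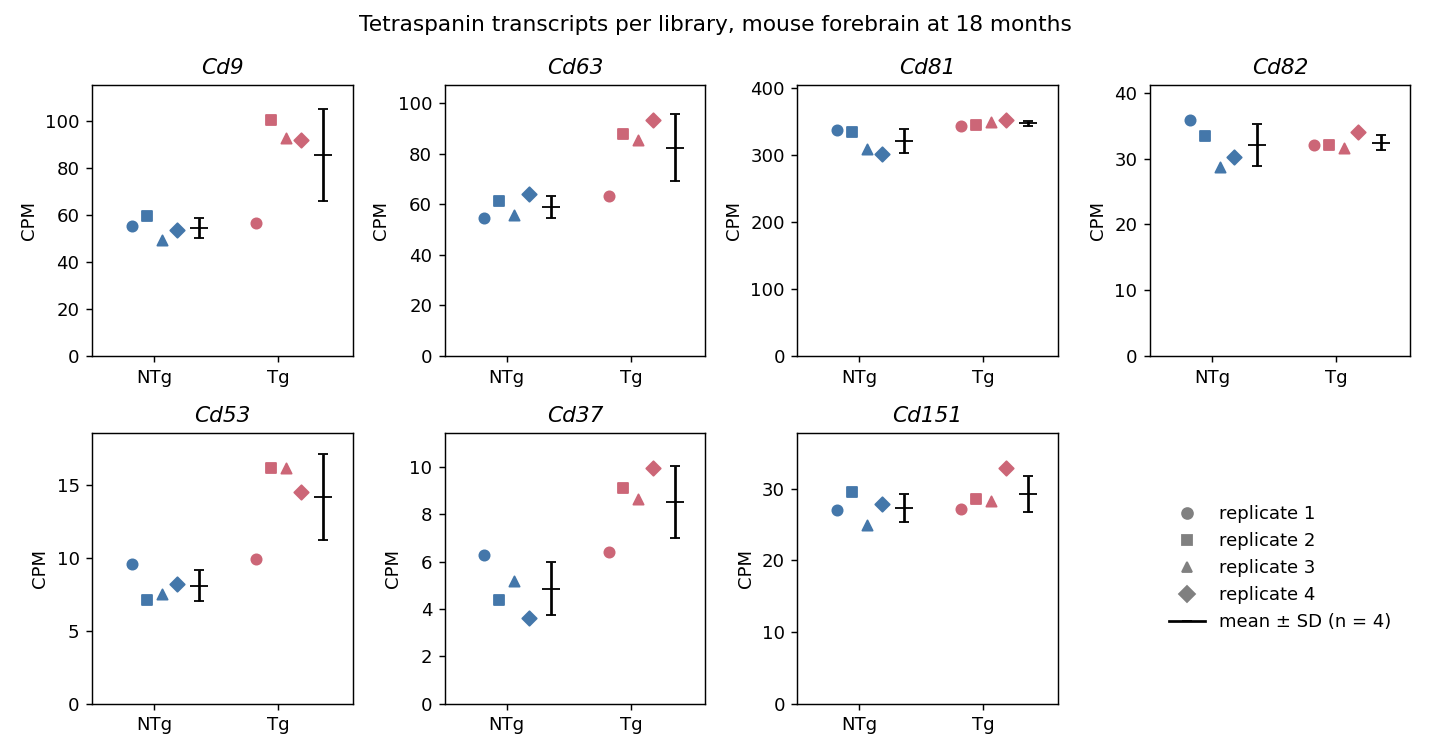
CPM (vertical axes, starting at 0) of the 7 tetraspanin genes in each NTg library (blue) and Tg library (red), with marker shape for the replicate and the mean ± SD of 4 libraries in black. Tg replicate 1 (circle) lies near the NTg libraries for Cd9, Cd63, Cd53 and Cd37, while the other 3 Tg libraries lie above them.

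Cd53, a tetraspanin of leukocytes and microglia that organises their adhesion and signalling receptors, was at 9.56, 7.09, 7.498 and 8.24 CPM in NTg replicates 1 to 4 and at 9.93, 16.2, 16.2 and 14.5 CPM in Tg replicates 1 to 4. The genotypes did not overlap, but Tg replicate 1 was only just above NTg replicate 1. The means were 8.10 ± 1.09 and 14.2 ± 2.95 CPM (SD, n = 4), a log2 fold change of 0.81 (SE 0.16) or 1.75-fold with a 95% interval of 1.37 to 2.24, and an edgeR adjusted p of 0.121. DESeq2 gave an adjusted p of 0.000299. Without Tg replicate 1 the difference was 1.93-fold, and it passed edgeR (adjusted p = 0.00343).

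Cd37, a tetraspanin best known from B cells and also made by myeloid cells, had the fewest counts of the members, 206 to 581 per library. Its level was 6.27, 4.37, 5.19 and 3.63 CPM in NTg replicates 1 to 4 and 6.40, 9.11, 8.66 and 9.96 CPM in Tg replicates 1 to 4. Again the genotypes did not overlap and NTg replicate 1 came within a small margin of Tg replicate 1. The means of 4.87 ± 1.13 and 8.53 ± 1.52 CPM (SD, n = 4) differed 1.75-fold, with a 95% interval of 1.32 to 2.33 and an edgeR adjusted p of 0.169. DESeq2 gave an adjusted p of 0.00293. The difference was 1.90-fold without Tg replicate 1, with an edgeR adjusted p of 0.0341.

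NTg replicate 1, the NTg library with the most Cd53 and Cd37, was also the one with the most B cell RNA. Its 7 B cell markers summed to 67.9 CPM, against 17.05 to 26.8 CPM in the other NTg libraries and 25.7 to 39.1 CPM in Tg. In that library the B cell surface gene Ms4a1 was at 3.53 CPM, and its highest value in the other 7 libraries was 0.287 CPM. Without it the log2 fold change was 0.90 for Cd53 and 0.96 for Cd37, each with an edgeR adjusted p of 0.121. No B cell gene was called by edgeR or DESeq2. The part of B cells in the levels of Cd53 and Cd37 was not tested.

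Cd9, which gathers integrins and growth factor precursors at the surface of glia and is a marker of plaque-associated microglia, was at 55.1, 59.7, 49.2 and 53.8 CPM in NTg replicates 1 to 4. In Tg it was at 56.5, 100.3, 92.9 and 91.8 CPM. The last 3 Tg libraries were far above all NTg libraries, and Tg replicate 1 lay inside the NTg range, so the genotypes overlapped. Mean levels were 54.4 ± 4.35 and 85.4 ± 19.6 CPM (SD, n = 4), a log2 fold change of 0.65 (SE 0.15) or 1.57-fold with a 95% interval of 1.23 to 1.99, and the edgeR adjusted p was 0.188. By DESeq2 the adjusted p was 0.00357. Leaving out Tg replicate 1 gave 1.74-fold and an edgeR adjusted p of 0.000908, the smallest of the 7 members under that setting.

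Cd63, the tetraspanin of late endosomes, lysosomes and exosomes, was at 54.6, 61.3, 55.8 and 64.0 CPM in NTg replicates 1 to 4 and at 63.2, 87.6, 85.2 and 93.2 CPM in Tg. As for Cd9, Tg replicate 1 lay inside the NTg range and the other Tg libraries above it. The means of 58.9 ± 4.43 and 82.3 ± 13.1 CPM (SD, n = 4) differed 1.40-fold, with a 95% interval of 1.18 to 1.66 and an edgeR adjusted p of 0.169. DESeq2 gave 0.00469. Without Tg replicate 1 the difference was 1.504-fold with an edgeR adjusted p of 0.00330. A pseudogene copy, Cd63-ps, held 920 counts over all libraries against 33842 for Cd63. It is not known how the counting divided reads between the copies, and Cd63 is uncertain to that extent.

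Cd81, the member with the highest level per kilobase and a partner of many immunoglobulin-family proteins, was at 338, 335, 309.5 and 302 CPM in NTg replicates 1 to 4 and at 343, 345, 350.0 and 352 CPM in Tg. All Tg libraries lay above all NTg libraries, but by a narrow margin, and the Tg libraries were closely spaced. With means of 321 ± 17.7 and 348 ± 4.32 CPM (SD, n = 4) the difference was 1.08-fold, with a 95% interval of 1.00 to 1.17 and an edgeR adjusted p of 0.652. Among all tested genes, 2.62% had every Tg library above every NTg library, as had 3 of the 7 members, Cd53, Cd37 and Cd81.

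Cd151, a partner of laminin-binding integrins, was at 27.0, 29.6, 24.9 and 27.8 CPM in NTg replicates 1 to 4 and at 27.2, 28.6, 28.3 and 32.9 CPM in Tg. The genotypes overlapped, and 1 Tg library lay above the NTg range. Its means were 27.3 ± 1.95 and 29.2 ± 2.51 CPM (SD, n = 4), or 1.07-fold with a 95% interval of 0.954 to 1.199 (edgeR adjusted p = 0.879).

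Cd82, which restrains cell migration and receptor signalling, was at 35.8, 33.4, 28.7 and 30.2 CPM in NTg replicates 1 to 4 and at 32.1, 32.05, 31.6 and 34.1 CPM in Tg. Every Tg library lay within the NTg range. The means of 32.1 ± 3.22 and 32.5 ± 1.13 CPM (SD, n = 4) gave 1.01-fold with a 95% interval of 0.907 to 1.13 (edgeR adjusted p = 0.987). The sign of its fold change depended on single libraries.

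Per kilobase of annotated exon, the order of the levels in NTg was Cd81 (112 CPM per kb), Cd9 (26.6), Cd63 (16.0), Cd82 (10.7), Cd151 (9.97), Cd53 (4.65) and Cd37 (1.38). In Tg the corresponding levels were 121, 41.8, 22.4, 10.8, 10.7, 8.15 and 2.42 CPM per kb, in the same order. Each neighbour pair kept this order in all 8 libraries except Cd82 and Cd151, whose ranges overlapped and which kept it in 6 of 8. Lengths came from GENCODE M21 as the union of all exons of a gene. With the longest coding transcript as the length instead, Cd63 (53.1 CPM per kb in NTg) stood above Cd9 (44.3), in 7 of 8 libraries, so the order of these 2 depends on the length used.

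The RefSeq promoter windows are printed for the 4 members that differed most, a choice made from these same data. Each window runs from 250 bases before to 50 bases after the annotated start, on build GRCm38.p6, which is older than the build of the counts, and is printed 5′ to 3′ on the gene's strand. Capitals mark GGAAGT or its reverse complement ACTTCC, called the ETS word here, which is found in sites of ETS-family factors such as the myeloid factor Spi1. The shorter GGAA within it was not searched for and is not marked. The windows are chr3:106790100-106790399 (minus strand), chr7:45238790-45239089 (minus strand), chr6:125494711-125495010 (minus strand) and chr10:128909095-128909394 (plus strand).
Cd53: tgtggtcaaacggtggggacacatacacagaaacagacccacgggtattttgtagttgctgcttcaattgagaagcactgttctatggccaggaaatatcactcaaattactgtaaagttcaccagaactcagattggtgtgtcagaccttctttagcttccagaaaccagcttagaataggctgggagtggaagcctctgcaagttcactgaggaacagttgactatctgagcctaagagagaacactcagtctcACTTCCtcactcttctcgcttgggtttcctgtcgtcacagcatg
Cd37: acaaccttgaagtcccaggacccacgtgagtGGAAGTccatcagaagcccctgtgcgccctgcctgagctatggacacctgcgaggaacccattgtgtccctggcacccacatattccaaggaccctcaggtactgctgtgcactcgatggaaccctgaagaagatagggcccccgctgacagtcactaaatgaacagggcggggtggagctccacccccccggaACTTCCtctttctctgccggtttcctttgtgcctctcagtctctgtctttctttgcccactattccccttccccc
Cd9: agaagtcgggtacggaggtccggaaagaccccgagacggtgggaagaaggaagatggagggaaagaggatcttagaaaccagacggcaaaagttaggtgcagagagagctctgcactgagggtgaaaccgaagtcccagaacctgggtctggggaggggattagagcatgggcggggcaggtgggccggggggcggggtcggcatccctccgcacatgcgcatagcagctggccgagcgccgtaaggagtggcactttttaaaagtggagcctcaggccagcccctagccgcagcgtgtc
Cd63: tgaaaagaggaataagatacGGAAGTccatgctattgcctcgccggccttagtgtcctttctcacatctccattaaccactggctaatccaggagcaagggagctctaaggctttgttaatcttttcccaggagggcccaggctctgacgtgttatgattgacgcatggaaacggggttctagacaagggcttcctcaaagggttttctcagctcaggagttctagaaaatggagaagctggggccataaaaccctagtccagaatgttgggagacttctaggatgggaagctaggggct

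The ETS word occurred 1 time in the window of Cd53, with its first base 7 bases into the transcript. In that of Cd37 it occurred 2 times, at 219 and 25 bases before the start. In that of Cd63 it occurred 1 time, at 230 bases before the start. No match to the full word lay in the Cd9 window, which does hold the shorter GGAA. Of all 32851 windows of this length, searched on both strands, 23.8% held the ETS word. Cd81 had 1 window and Cd151 had 2, all without it, and of the 4 windows of Cd82 1 held it. The GC box GGGCGG, or CCGCCC on the other strand, a word bound by Sp1-type factors and frequent in broadly active promoters, occurred in 6 of the 11 windows: 2 times in that of Cd9, 3 times in that of Cd81, 1 time in that of Cd37, in 2 windows of Cd82 and in 1 window of Cd151, and not in those of Cd53 and Cd63. Of all windows 35.7% held it. The E-box CACGTG, the core of the lysosomal gene motif read by Tfeb, was in 1 of the 11 windows of the members, that of Cd37, and in 7.15% of all windows. The TATA word TATAAA, or TTTATA on the other strand, was in 1 of the 11 windows, that of Cd81, and in 13.6% of all windows. In Cd81 its first base lay 7 bases into the transcript, not before the start. These matches describe letters and were not tested against the expression values.

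The levels were then set beside those of cell-type marker lists in the same libraries. Homeostatic microglia markers (11 genes, Csf1r among them) summed to 294 to 379 CPM in NTg, to 391 CPM in Tg replicate 1 and to 557 to 603 CPM in the other Tg libraries. Disease-associated microglia markers, without tetraspanins (17 genes, led by Apoe and Ctsb), summed to 2641 to 2870 CPM in NTg, to 2831 CPM in Tg replicate 1 and to 3773 to 4028 CPM in the others. The second sum is dominated by Apoe, so the mean log2 CPM over genes, relative to NTg, is given too. By that mean Tg replicate 1 was at 0.26 in the homeostatic list (NTg maximum 0.20, other Tg libraries 0.74 to 0.88) and at 0.43 in the disease-associated list (NTg maximum 0.12, other Tg libraries 1.06 to 1.19). It thus lay above all NTg libraries in both lists and below the other Tg libraries, as it did for Cd53 and Cd37, whereas for Cd9 and Cd63 it lay inside the NTg range. Of the 17 disease-associated genes 11 had every Tg library above every NTg library, against 2.62% of all genes. By DESeq2 6 of 11 and 12 of 17 genes of these lists rose, and by edgeR 0 of each, or 7 and 14 without Tg replicate 1, where 1.33% (DESeq2), 0.0139% (edgeR, either direction) and 1.26% (edgeR without Tg replicate 1) of all genes were called. Of the reactive astrocyte genes 6 of 8 rose by DESeq2 and 0 by edgeR, or 6 without Tg replicate 1, and of the 8 astrocyte genes DESeq2 called 1 higher and 1 lower and edgeR 0. In whole tissue, more cells of a type and more RNA per cell cannot be told apart. The part of microglia or of any cell type in the tetraspanin levels was not tested.

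**Figure D2:**
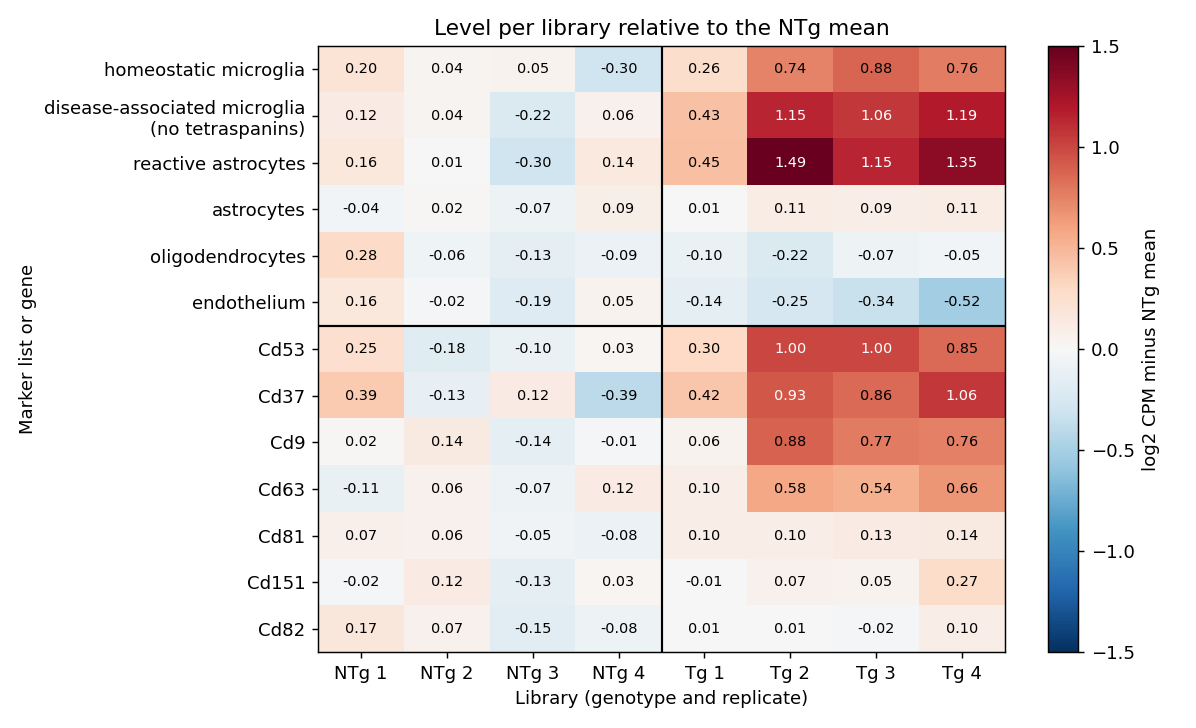
Heat map of the log2 CPM (colour and printed number) of each marker list (mean of its genes, above the line) and each tetraspanin (below), with one column per library and the NTg average subtracted. In Cd53, Cd37, Cd9 and Cd63 the libraries Tg 2 to Tg 4 lie at 0.54 to 1.06, and Tg 1 at 0.06 to 0.42, whereas Cd81, Cd151 and Cd82 stay between -0.15 and 0.27.

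Measured against the homeostatic microglia list within each library (log2 CPM of the gene minus the list mean, with the NTg mean set to 0), 4 members overlapped NTg. Cd9 was at -0.04 ± 0.15 in Tg (SD, n = 4), against an SD of 0.23 in NTg. Cd53 was at 0.13 ± 0.10, Cd37 at 0.15 ± 0.13 and Cd63 at -0.19 ± 0.11 in Tg, all overlapping NTg. Cd81, Cd151 and Cd82 lay lower relative to the list, at -0.55 ± 0.26, -0.57 ± 0.24 and -0.64 ± 0.27, with all Tg below all NTg libraries. In Tg replicates 2 to 4 the values were -0.10 to 0.14 for Cd9 and -0.34 to -0.10 for Cd63, and for Cd81 -0.75 to -0.63, farther from NTg than the -0.17 of Tg replicate 1. These differences are descriptions and were not tested.

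Against the disease-associated list, Cd53 (-0.17 ± 0.12) and Cd37 (-0.14 ± 0.09) overlapped NTg, while Cd9 (-0.34 ± 0.08) and Cd63 (-0.49 ± 0.11) were below all NTg libraries in every Tg library, Tg replicate 1 included. So Cd9 and Cd63, both themselves known members of the plaque-associated programme, stood higher in Tg by less than the average of the other genes in this list. The genes of this list ranged from a log2 fold change of 0.01 to 3.06. Against the astrocyte list, whose sum was 4045 to 4896 CPM in NTg and 4247 to 4623 CPM in Tg, Cd9 was at 0.54 ± 0.33 and Cd63 at 0.39 ± 0.20, and Cd81 at 0.03 ± 0.04. Cd63 lay above all NTg libraries, as did Cd53 (0.71 ± 0.28), while Cd37 (0.73 ± 0.23) overlapped NTg. Cd9 overlapped NTg only through Tg replicate 1 (0.05), with the other Tg libraries at 0.64 to 0.77 against an NTg maximum of 0.12. All Tg libraries of Cd81 lay within its NTg range. Against the oligodendrocyte list, every Tg library was above NTg for Cd53 (0.90 ± 0.36), Cd37 (0.93 ± 0.285) and Cd81 (0.23 ± 0.07). Cd9 (0.73 ± 0.40), Cd63 (0.58 ± 0.26), Cd151 (0.21 ± 0.11) and Cd82 (0.13 ± 0.07) overlapped NTg there.

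**Figure D3:**
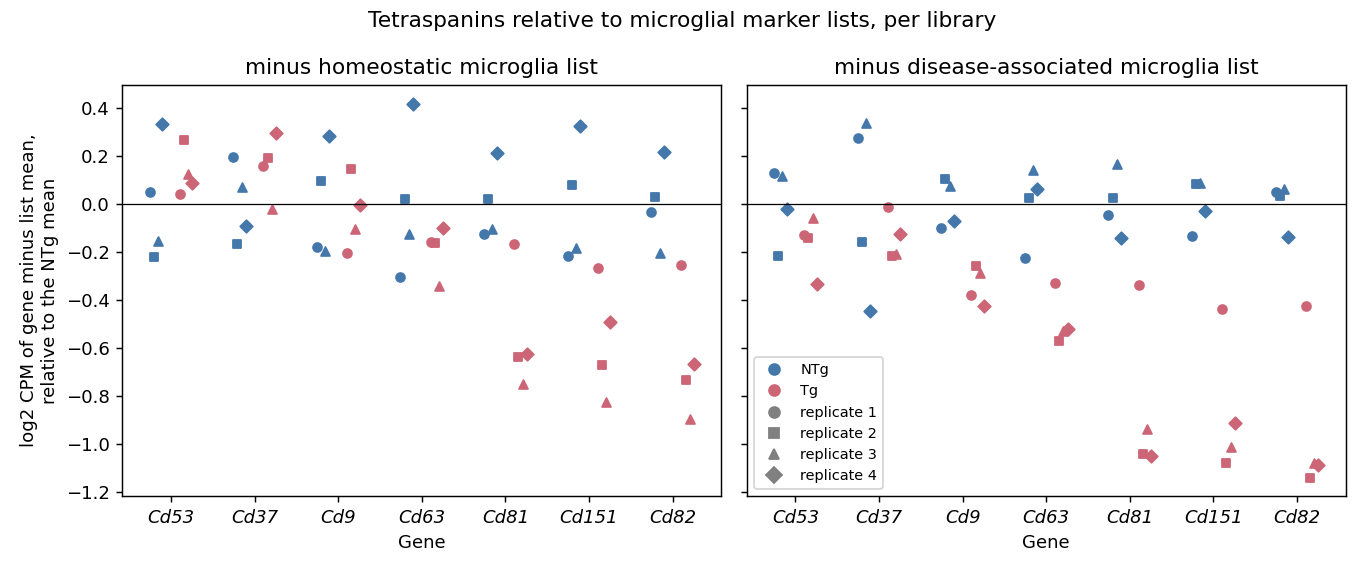
Log2 CPM of each tetraspanin minus the mean of a microglial marker list, per library and relative to the NTg mean, for the homeostatic (left) and the disease-associated list (right), with NTg in blue, Tg in red and marker shape for the replicate. Cd53, Cd37, Cd9 and Cd63 overlap NTg on the left, and Cd81, Cd151 and Cd82 lie below all NTg libraries in both panels.

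Among genes with a symbol and a mean of at least 1 CPM, those whose log2 CPM followed a member most closely over the 8 libraries were partly of known cell origin. Cd53 was followed by Ctsh (Pearson r = 0.995), a lysosomal protease, and Arhgap30 (0.992). Cd37 was followed by Neurl3 (0.993), Pld4 (0.991) and Rasal3 (0.989), of which Pld4 is a nuclease of myeloid lysosomes. Cd9 was followed by Cd109 (0.989), Cnn3 (0.988) and Rab29 (0.987), and Cd63 by Hspb6 (0.994), Serpinf2 (0.988) and Cnn3 (0.987), an actin-binding calponin. For Cd81 the closest were Pcyox1l (0.967), Acy3 (0.952) and Slc22a18 (0.947). Those closest to Cd82 were Slc35a2 (0.944), Armc2 (0.938) and Tkfc (0.937), and those closest to Cd151 were Tbccd1 (0.947), Shc1 (0.942) and Snx22 (0.941). All these values share the same 8 libraries and the genotype difference, and are the highest among 13754 genes searched.

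The other tetraspanins, 24 genes of which 22 were tested, had log2 fold changes of -0.35 to 0.28. None was called by edgeR, DESeq2 or limma-voom, and at an unadjusted p under 0.05 edgeR gave 0 higher and 1 lower, where 2.68% of all genes were lower. Their median log2 fold change was -0.0088, with 9 above and 13 below 0. Tspan7, a neuronal tetraspanin that regulates receptor traffic at synapses and the most abundant of these 24 genes by CPM, was at 758, 729.9, 743 and 696 CPM in NTg replicates 1 to 4 and at 635, 676, 683 and 675 CPM in Tg. Its genotypes did not overlap, but the log2 fold change of -0.13 (SE 0.05) did not pass (edgeR adjusted p = 0.5002). Tspan3, which averaged 324 ± 13.7 CPM (NTg) and 305 ± 4.26 CPM (Tg; SD, n = 4), also had every Tg library below every NTg library (edgeR adjusted p = 0.752). Among all genes 1.58% did. Tspan6 went the other way without overlap, from 15.5 ± 0.413 to 17.3 ± 1.61 CPM (edgeR adjusted p = 0.703). The photoreceptor tetraspanin Rom1 was at 6.77 and 7.97 CPM.

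**Figure D4:**
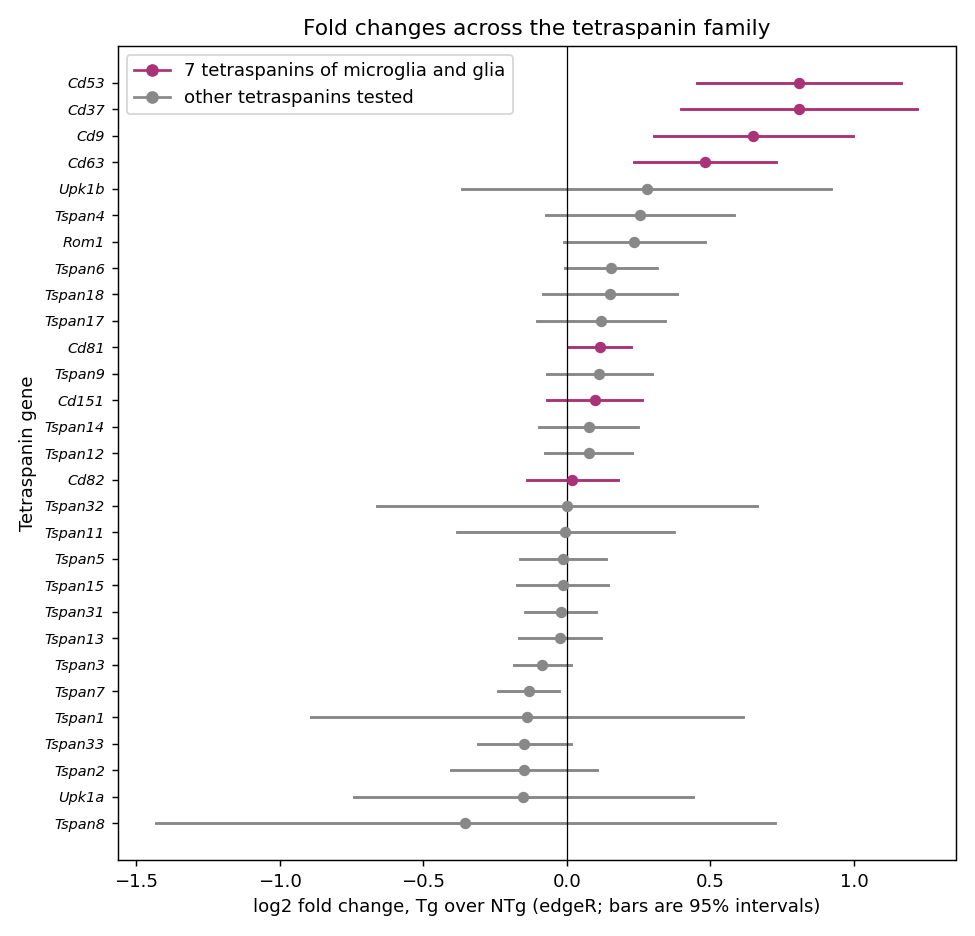
Log2 fold change, Tg over NTg, of the 7 members (purple) and the 22 other tetraspanins tested (grey), ordered by size, with 95% intervals from edgeR. The 4 largest values are those of Cd53, Cd37, Cd9 and Cd63, from 0.48 to 0.81, and Cd81, Cd151 and Cd82 lie among the other family members.

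A subgroup of the family, the TspanC8 tetraspanins, escorts the protease Adam10, which cuts APP within the amyloid sequence. Of its 6 genes 5 were tested and 0 were called by edgeR, DESeq2 or at an unadjusted p under 0.05, with a median log2 fold change of -0.01. Its summed level was 234 to 261 CPM in NTg and 223 to 258 CPM in Tg. Tspan5, its most abundant member by CPM, was at 133 ± 5.10 (NTg) and 132 ± 12.0 CPM (Tg), and Tspan33 at 23.8 ± 1.72 and 21.5 ± 1.67 CPM (SD, n = 4). Adam10 itself was at 96.4 ± 6.31 (NTg) and 96.4 ± 5.85 CPM (Tg), with a 95% interval of the fold change from 0.909 to 1.10.

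Of 17 genes for proteins that tetraspanins bind, 16 were tested and 0 passed edgeR. At an unadjusted p under 0.05 edgeR gave 4 higher and 1 lower, where 4.68% and 2.68% of all genes were, and DESeq2 called 3 higher, where it called 1.33% of all genes. Without Tg replicate 1 edgeR called 2, Cd44 and Itgb2, where 1.26% of all genes were called higher. The median log2 fold change was 0.03. Cd44, the hyaluronan receptor and also a reactive astrocyte marker, was at 6.90 ± 0.905 (NTg) and 14.4 ± 4.88 CPM (Tg) (SD, n = 4), with a DESeq2 adjusted p of 0.000573. Its Tg replicate 1, at 8.65 CPM, was lowest in Tg and still above NTg. Itgb2, the integrin chain of leukocytes and microglia, was at 10.4 ± 0.996 and 16.8 ± 3.65 CPM (DESeq2 adjusted p = 0.00249), and overlapped NTg through Tg replicate 1. Icam1, a ligand of that integrin, was at 2.91 ± 0.366 and 4.31 ± 0.756 CPM (DESeq2 adjusted p = 0.0429). Hbegf, a growth factor precursor that binds Cd9, was at 14.6 ± 0.842 and 12.8 ± 0.673 CPM (edgeR adjusted p = 0.501). Igsf8, the main immunoglobulin-family partner of Cd9 and Cd81, was at 135 ± 11.8 and 133 ± 15.3 CPM.

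The 17 genes of endosome sorting and vesicle release, the route by which Cd63, Cd9 and Cd81 leave cells, had small differences of either sign. By edgeR and DESeq2 0 of 17 were called, 0 had an unadjusted edgeR p under 0.05, and the median log2 fold change was -0.0020, with a range of -0.13 to 0.12. Lamp1, a lysosomal membrane protein, was at 302 ± 10.1 (NTg) and 326 ± 17.0 CPM (Tg), and its relative Lamp2 at 121 ± 8.19 and 132 ± 8.04 CPM (SD, n = 4). Rab7, the small GTPase of late endosomes, was at 253 ± 3.96 and 255 ± 10.2 CPM. Rab27b, which docks vesicles for release, was at 42.3 ± 0.613 and 38.8 ± 4.66 CPM. Its Tg replicate 1, at 45.6 CPM, lay above the NTg range of 41.7 to 43.2 CPM. The other Tg libraries, at 35.4 to 37.7 CPM, lay below that range. Without Tg replicate 1 its log2 fold change was -0.21 and did not pass (edgeR adjusted p = 0.0734).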

How the data were processed

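Whole-number counts for each Ensembl gene in 8 libraries, without normalization, are the values the authors deposited. The submitters' processing notes name STAR and DESeq2 as tools and GRCm39 as the build. The counting tool, annotation release, versions and strand setting were not given in the sources used here. Per the labels' protocols the kit was TruSeq RNA version 2, which does not mark strand. A name table gave symbols for 52073 of 56748 identifiers. By GENCODE M21 10.7% of the exon length of Cd9, 7.04% of that of Cd151, 3.61% of that of Cd81 and 0.369% of that of Cd37 overlap a gene on the other strand, whose reads cannot be told apart. Numbers of reads limit precision by counting error only.

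Genes were kept by filterByExpr of edgeR (minimum count 10, minimum total 15), scaled with TMM and tested with glmQLFit and glmQLFTest, Tg against NTg, and p-values were adjusted by Benjamini-Hochberg across all tested genes. The SE is the log2 fold change divided by the square root of F. Log2 CPM values have a prior count of 2. R 4.3.3, edgeR 4.0.16, limma 3.58.1 and DESeq2 1.42.0 were used. The edgeR fit was also tested on simulated data, but the outcome is not reported here and no result rests on it. Alternatives were DESeq2, limma-voom, RLE and upper-quartile scaling, no or a stricter filter, a replicate block, robust dispersion, an FDR of 0.01 and each library left out. Libraries of one genotype differed by more than counting noise (lowest chi-square over its degrees of freedom 11), which does not show that each is a separate animal.

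The members and gene lists were chosen with earlier results of these data known, so no list is independent evidence. Named genes were all members, the 4 with the smallest p and the most abundant (4 of the other tetraspanins, 2 of the partner and vesicle lists), and the 3 closest by correlation to each member. Not every gene this rule allows is printed, a few genes are not reported here, and Ms4a1 and the pseudogene were added after their values were seen. All libraries carry the same batch label, so no batch split could be made.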

Additional observations from a re-analysis of the deposited data

Results flagged for a closer look

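In the 7 members no library stood apart from its group by Dixon's test, which compares the gap between the most extreme library and its neighbour with the range of the 4 libraries. Among the other tetraspanins 4 values stood apart, of 58 groups looked at for the whole family, where chance flags about 1 in 20. They lay in NTg replicate 4 and Tg replicate 1 only, and values of the same library are not independent. Tspan4 was at 18.6 CPM in NTg replicate 4 against 13.01 to 13.9 CPM in the other NTg libraries. In the same library Tspan9 was at 106 CPM against 83.5 to 87.3 CPM. Tspan7 was at 635 CPM in Tg replicate 1, below the 675 to 683 CPM of the other Tg libraries, and Tspan33 at 23.95 CPM in that library, above their 20.4 to 20.8 CPM.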

How the results depend on the processing

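The count of members called higher was 0 by edgeR, with RLE or upper-quartile scaling, limma-voom and an FDR of 0.01. Each of these called 0.0139% of all genes in either direction. It was also 0 with a stricter filter (0.0182%) and robust dispersion (0.0185%). It was 1 with no filter on low counts (Cd53, edgeR adjusted p = 0.0316), where 0.295% of all genes were called higher. It was 4 with DESeq2 (1.33% of all genes higher) and 4 without Tg replicate 1 (1.26% higher). With any other single library left out it was 0, where 0.0136% to 0.073% of all genes were called. No member was called lower, and no other tetraspanin was called in either direction, under any of these settings. For Cd82, which was never called, the log2 fold change of 0.02 turned to -0.032 without NTg replicate 3, -0.0080 without NTg replicate 4 and -0.0067 without Tg replicate 4, with a leave-one-out range of -0.032 to 0.076, and the other members kept their sign throughout. The cause of these shifts was not tested. Deviations from the group mean of same-numbered Tg and NTg replicates had correlations of 0.0656, -0.0321, 0.155 and -0.00894. Not every library correlated best with its own number. No pairing by number was seen, but 4 libraries per genotype cannot exclude it, and pairing by litter was not examined. With the replicate block 0 members and 0 other tetraspanins were called, and 1 gene in all against 3 without the block. The length of the longest coding transcript, an alternative added after seeing the data, changed the order of Cd9 and Cd63 per kilobase. Depth limits Cd37 most, at 206 counts in its lowest library.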

Other observations

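Markers of other cell types that can hold tetraspanins are given as summed levels. Platelet markers, from cells rich in Cd9, Cd63 and Cd151, summed to 7.32 to 8.39 CPM in NTg and 8.34 to 9.14 CPM in Tg. That sum was led by Itgb3 (4.08 in NTg and 4.68 CPM in Tg) and Itga2b (2.83 and 3.02 CPM). Of the 4 platelet genes tested, 3 had a positive log2 fold change and 1, Ppbp (0.297 and 0.226 CPM), a negative one. T cell markers summed to 11.4 to 17.8 and 9.72 to 15.2 CPM, neutrophil markers to 2.66 to 9.68 and 2.48 to 10.51 CPM, and border macrophage markers to 9.41 to 14.9 and 8.59 to 16.3 CPM. No gene of these 4 lists was called by edgeR or DESeq2 or had an unadjusted edgeR p under 0.05. Oligodendrocyte markers summed to 7868 to 9760 CPM in NTg and 6688 to 8168 CPM in Tg, and those of oligodendrocyte precursors to 92.7 to 100.9 and 95.6 to 106 CPM, with 0 called by either tool.

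Endothelial markers summed to 224 to 271 CPM in NTg and 189 to 235 CPM in Tg, with 1 of 7 called lower by DESeq2, while Cd151, a tetraspanin of vessels, had a log2 fold change of 0.10. Choroid plexus markers summed to 1176 to 1589 CPM in NTg and 718 to 1113 CPM in Tg, with 5 of 7 called lower by DESeq2 and 0 by edgeR. Over all tested genes DESeq2 called 0.301% lower, and edgeR called 0.0139% in either direction. At an unadjusted edgeR p under 0.05, 6 of the 7 choroid plexus and 4 of the 7 endothelial genes were lower, where 2.68% of all genes were. Neither tool called any of the 5 red blood cell genes over all libraries. Markers of pericytes and smooth muscle (106 to 128 and 94.96 to 124 CPM), fibroblasts and meninges (77.4 to 109.6 and 73.6 to 102 CPM), ependyma (12.7 to 21.5 and 15.9 to 21.4 CPM) and neurons (5011 to 5387 and 4530 to 5194 CPM) had 0 genes called by either tool.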
